A study of Mus musculus with 4 samples.

Results

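The NR4A family holds 3 orphan nuclear receptors, encoded in the mouse by Nr4a1 (Nur77), Nr4a2 (Nurr1) and Nr4a3 (Nor1), and their mRNAs were described in pancreatic islets exposed to high or low glucose. The members were taken by gene name, 3 of the 56748 genes in the count table, and the family was chosen by its glucose difference in these same 4 libraries, so that difference is given as a description and carries no test. NR4A proteins bind DNA as transcription factors in the manner of other nuclear receptors, but no classical hormone ligand is known to switch them on, and their ligand pocket is filled by bulky side chains. Their activity is set largely by how much protein is made, and their genes belong to the immediate early genes, which calcium, cAMP and growth factor signals switch on without new protein synthesis. In pancreatic beta cells, where glucose metabolism opens calcium channels, NR4A receptors have been studied for their part in insulin gene expression, mitochondrial metabolism and proliferation.

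Islets came from male C57BL/6J mice of 6 to 8 weeks with no engineered allele. They recovered overnight, were starved of glucose, and were then kept for 2 h in 25 mM glucose (high glucose, 2 libraries) or 2.5 mM glucose (low glucose, 2 libraries). Cycloheximide, which blocks translation elongation and is known to lengthen the life of many immediate early mRNAs, was given at 100 µg/mL for the last 15 min in both groups, so no library without it was compared. Each library was poly(A) RNA of islets pooled from several mice, and the islets of each mouse had been divided between both glucose levels. The p-values below therefore rest on spread between pooled libraries, not between single mice. In the paired edgeR fit that spread was shared across genes, as given below.

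The 4 libraries held between 17279505 and 19136068 reads assigned to genes, and high-glucose replicate 2 stood apart from the others (Pearson r of log2 values 0.939 to 0.960, against 0.967 to 0.981 between the other libraries). The insulin genes Ins1 and Ins2 took 16.1% of its reads, against 7.03 to 9.21% in the other 3 libraries. The summed beta cell markers reached 88082 and 201285 CPM (counts per 1000000 library reads) at high glucose, against 81553 and 111402 CPM at low glucose. Endothelial markers followed the replicate number rather than glucose, with 52.1 and 161 CPM at high glucose, against 49.4 and 162 CPM at low glucose, and macrophage and immune markers had 62.9 and 134 CPM at high glucose, against 65.4 and 95.8 CPM at low glucose. No marker of the lists was at 0 in all 4 libraries, and apart from 3 of 9 beta cell markers no marker was called in the fit that paired the libraries. In bulk RNA, fewer cells of a type and less RNA per cell cannot be told apart, and the part of these other cells in the values below was not tested.

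All 3 NR4A promoters were rich in the half-site of the cAMP response element, the sequence TGACG that CREB family factors bind. The windows below run from 250 bases before to 50 bases after each gene start (RefSeq, build GRCm38.p6), read 5′ to 3′ on the gene's strand, with every TGACG and its reverse complement CGTCA in capitals. They are shown because all 3 genes were higher at high glucose and because this feature is common to them. Nr4a1 lies on the plus strand at chr15:101266596-101266895, Nr4a2 on the minus strand at chr2:57123954-57124253, and Nr4a3 on the plus strand at chr4:48045055-48045354.
Nr4a1 promoter: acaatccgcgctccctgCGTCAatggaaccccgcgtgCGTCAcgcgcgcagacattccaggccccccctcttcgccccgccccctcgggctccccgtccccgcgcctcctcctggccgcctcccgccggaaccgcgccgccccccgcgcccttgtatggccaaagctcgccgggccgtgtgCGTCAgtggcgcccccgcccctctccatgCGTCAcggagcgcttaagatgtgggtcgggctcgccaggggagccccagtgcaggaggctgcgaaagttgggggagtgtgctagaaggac
Nr4a2 promoter: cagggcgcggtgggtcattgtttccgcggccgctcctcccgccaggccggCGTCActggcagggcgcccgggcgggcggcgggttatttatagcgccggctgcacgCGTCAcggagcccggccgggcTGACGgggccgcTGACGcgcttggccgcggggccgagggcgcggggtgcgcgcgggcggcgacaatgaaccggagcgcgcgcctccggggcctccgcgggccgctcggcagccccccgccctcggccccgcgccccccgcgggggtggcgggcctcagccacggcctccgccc
Nr4a3 promoter: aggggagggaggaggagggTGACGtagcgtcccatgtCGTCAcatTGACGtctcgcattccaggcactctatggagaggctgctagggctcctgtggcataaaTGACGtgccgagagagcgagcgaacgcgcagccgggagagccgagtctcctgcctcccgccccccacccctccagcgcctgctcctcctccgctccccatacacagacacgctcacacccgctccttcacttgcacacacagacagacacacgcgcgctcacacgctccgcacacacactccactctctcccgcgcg

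Each window held 4 half-sites. Windows with at least 4 numbered 76 among the 32851 promoter windows of the same length, or 0.231%, whereas 20.8% held at least 1. NR4A promoters are also rich in G and C (72.3% in Nr4a1, 81.7% in Nr4a2 and 64.7% in Nr4a3, against a median of 52.7%), and among the 9690 windows of at least 60% G or C, 0.557% held 4 or more half-sites. In Nr4a1 the half-sites began 233, 213, 69 and 40 bases before the gene start. In Nr4a2 they lay 200, 144, 123 and 111 bases before it, and in Nr4a3 231, 213, 205 and 147 bases before it, so only Nr4a1 had a half-site within 100 bases of the start. None of the 3 windows held the whole palindromic element TGACGTCA, which contains the half-site on both strands and was present in 1.79% of all windows. None held the NR4A monomer site NBRE (AAAGGTCA on either strand, in 1.51% of windows) or the E-box CACGTG (in 7.15%). None held an exact serum response CArG box (CC, then 6 bases of A or T, then GG, in 1.63%). Only exact matches were counted, so a site that differs by a base was not looked for. Among the immediate early genes set beside the family below, Fos, Npas4 and Egr4 held 2 half-sites, as did some windows of Egr2, Fosb and Junb held 1, Fosl2, Jun and Jund held 0, and no window of the 6 AP-1 genes or 3 Npas4, EGR and Arc genes with an entry held 3 or more. A match is a description of the letters and not evidence of binding.

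The transcripts of the 3 genes share only short runs of exact sequence. The longest identical stretch was 14 bases between Nr4a1 and Nr4a2, 24 bases between Nr4a1 and Nr4a3 and 27 bases between Nr4a2 and Nr4a3, all within the coding part. The longer stretches are shown to give their scale.
Nr4a1 and Nr4a3, shared stretch: gagggctgcaagggcttcttcaag
Nr4a2 and Nr4a3, shared stretch: gcaaataaaaactgcccagtggacaag

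Nr4a1, the member best known as a stress and calcium responsive gene, had 1270 and 4813 reads at high glucose in replicates 1 and 2, against 50 and 110 reads at low glucose. Scaled to library size, these were 64.2 and 272 CPM at high glucose, against 2.79 and 5.91 CPM at low glucose (TMM-scaled, as are all CPM values here). The groups did not overlap, and the lower high-glucose library still held 10.9 times the level of the higher low-glucose library. With 2 libraries a group, such an order is a weak mark: of 15665 genes tested, 5047 were higher at high glucose in both same-numbered pairs. How many of these also did not overlap was not counted. Within pair 1 the high-glucose level was 23.0 times the low-glucose level (95% exact interval 17.3 to 31.1), and within pair 2 it was 45.9 times (38.0 to 56.0). These intervals, like the others given for ratios, cover counting error only. The mean level was 168 ± 147 CPM at high glucose and 4.35 ± 2.21 CPM at low glucose (SD, n = 2 each).

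The spread between replicates of Nr4a1 was wide on both sides. High-glucose replicate 2 held 4.23 times the level of high-glucose replicate 1, and low-glucose replicate 2 held 2.12 times the level of low-glucose replicate 1. Replicate 2 was thus higher at both glucose levels, as were the summed beta, alpha, PP, endothelial and macrophage markers, whose part in this was not tested. Stellate cell and fibroblast markers ran the other way, with 498 and 127 CPM at high glucose, against 530 and 101 CPM at low glucose. Acinar markers were highest in high-glucose replicate 1, with 611 and 240 CPM at high glucose, against 257 and 290 CPM at low glucose. The fitted log2 fold change of high over low glucose was 5.26 ± 0.76 (SE), the third highest of 15665 genes tested. Leaving out high-glucose replicate 2 brought the fitted value to 3.88. It was 5.96 when the first high-glucose library was dropped instead, and 5.98 when low-glucose replicate 2 was. Within the pairs Nr4a1 ranked 2 of 15665 in each.

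**Figure D1:**
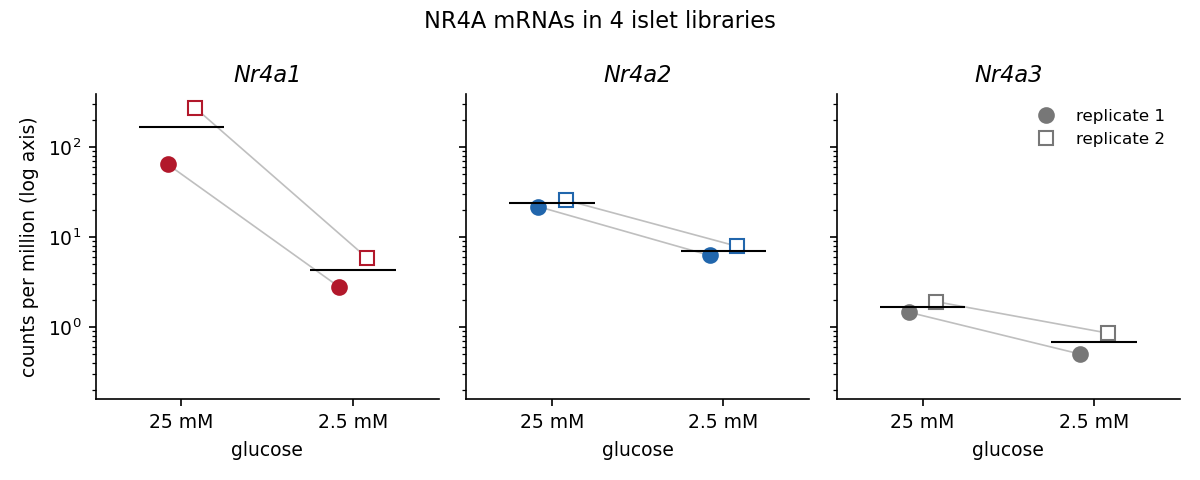
CPM of Nr4a1, Nr4a2 and Nr4a3 in each library on a log axis, with high glucose (25 mM) left of low glucose (2.5 mM); filled circles are replicate 1, open squares replicate 2, grey lines join same-numbered libraries and black bars are group means. In each gene, all chosen on this contrast, both high-glucose libraries lie above both low-glucose libraries. The gap is widest in Nr4a1 (64.2 and 272 CPM against 2.79 and 5.91 CPM).

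Nr4a2, known for its role in dopamine neurons, had 431 and 456 reads at high glucose, against 112 and 147 reads at low glucose. The levels were 21.8 and 25.7 CPM at high glucose, against 6.25 and 7.90 CPM at low glucose. Here the replicates lay close together and the groups were far apart relative to them: the 2 high-glucose libraries differed 1.18-fold and the 2 low-glucose libraries 1.26-fold. The within-pair folds were 3.48 (2.82 to 4.32) and 3.26 (2.70 to 3.95), with intervals that overlap. The group means were 23.8 ± 2.80 CPM at high glucose and 7.08 ± 1.16 CPM at low glucose (SD, n = 2 each), and the fitted log2 fold change was 1.75 ± 0.27 (SE). It ranked 154 of the 15665 genes in that fit, and 108 and 296 in pairs 1 and 2.

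Nr4a3, the longest of the 3 transcripts, was near the lower end of detection, with 29 and 34 reads at high glucose, against 9 and 16 reads at low glucose. The levels were 1.46 and 1.92 CPM at high glucose, against 0.503 and 0.860 CPM at low glucose. Both high-glucose libraries were again above both low-glucose ones, but the counting error was large: the within-pair folds were 2.91 (1.34 to 7.0) and 2.23 (1.20 to 4.33). The group means were 1.69 ± 0.321 CPM at high glucose and 0.681 ± 0.253 CPM at low glucose (SD, n = 2 each), with a fitted log2 fold change of 1.30 ± 0.59 (SE). At this depth the size of the Nr4a3 difference could not be told from that of Nr4a2, whose interval lies inside that of Nr4a3 in both pairs.

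All 3 members passed the filter on low counts, Nr4a3 with the fewest reads. Across the whole table, the edgeR quasi-likelihood test without a pairing term called 0 of 15665 genes at an adjusted p of 0.05 (0%), while 1643 genes (10.5%) had an unadjusted p under 0.05. With same-numbered libraries as a block, edgeR called 290 genes higher (1.85%) and 785 lower (5.01%) at high glucose, and DESeq2 without a block called 185 of 11434 genes (1.62%). In the block fit a spread shared across genes replaced each gene's own spread between libraries (infinite prior degrees of freedom). A small p-value from that fit therefore does not mean that a gene's replicates lay close together. The glucose contrast chose the NR4A genes, so nothing is read from their own standing in these tests. Pairing moved their fitted log2 values little, to 5.05 for Nr4a1, 1.75 for Nr4a2 and 1.33 for Nr4a3. Genes of like exonic length (within 10%) had medians near 0 on the log2 scale in pairs 1 and 2: -0.01 and 0.13 for the length of Nr4a1, -0.03 and 0.04 for that of Nr4a2, and -0.06 and -0.19 for that of Nr4a3.

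Scaled to exonic length, Nr4a1 was clearly ahead of Nr4a2 at high glucose only. Both genes were chosen on the glucose contrast. The shift in their ratio restates the gap between their glucose folds and is no separate result. To compare levels between genes, CPM were divided by exonic length in kb (3509 bases for Nr4a1, 4059 for Nr4a2 and 5987 for Nr4a3). At high glucose Nr4a1 exceeded Nr4a2 by 3.41 times (3.05 to 3.81) and 12.2 times (11.1 to 13.5) in replicates 1 and 2. At low glucose the Nr4a1 to Nr4a2 ratio was 0.516 (0.362 to 0.727) and 0.866 (0.670 to 1.12). Nr4a2 was thus ahead in low-glucose replicate 1, while in low-glucose replicate 2 the 2 genes did not differ beyond counting error. Their per-kb levels at low glucose overlapped between libraries (0.796 and 1.68 CPM per kb for Nr4a1, 1.54 and 1.95 CPM per kb for Nr4a2). These ratios are taken within a library, so they do not depend on how libraries were scaled to each other. They do depend on the lengths used. The reference transcripts (GENCODE vM21) are 2553 bases for Nr4a1 and 3568 for Nr4a2, which would raise the Nr4a1 to Nr4a2 ratio. The order of the 2 genes in low-glucose replicate 2 therefore hangs on that choice.

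Expressed as shares of the family's per-kb signal, Nr4a1 made up 76.5% and 92.1% at high glucose, against 32.9% and 44.6% at low glucose. Nr4a2 made up 22.5% and 7.54% at high glucose, against 63.7% and 51.6% at low glucose, although its own level was higher at high glucose. Nr4a3 stayed the least abundant member in every library, with 1.02% and 0.381% at high glucose, against 3.47% and 3.81% at low glucose. Nr4a2 exceeded Nr4a3 per kb by 21.9 and 19.8 times at high glucose, and by 18.4 and 13.6 times at low glucose. Counted together, NR4A reads numbered 1730 and 5303 at high glucose, against 171 and 273 at low glucose. Per total reads this was 93.0 and 277 RPM, scaled by library size alone, at high glucose, against 9.90 and 14.3 RPM at low glucose.

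**Figure D2:**
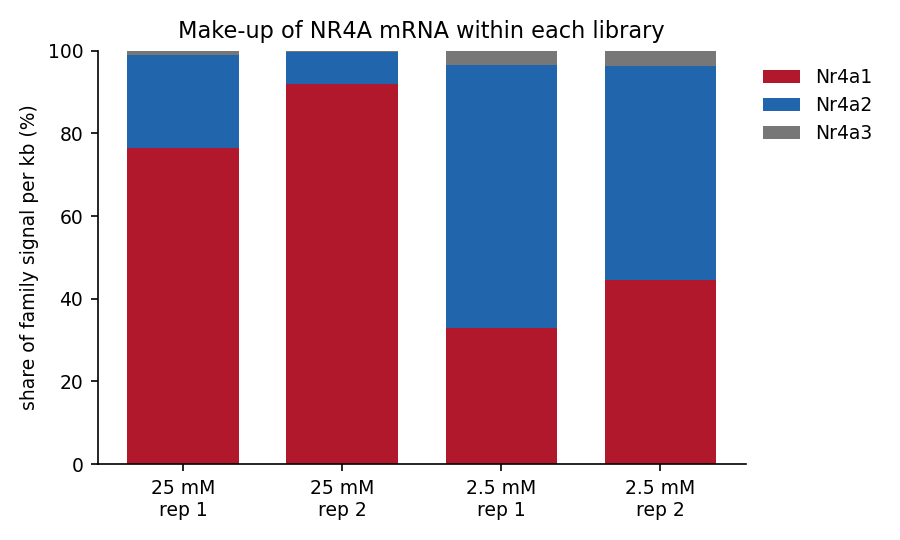
Share of the family's length-scaled signal (CPM per kb of exon, in %) held by Nr4a1, Nr4a2 and Nr4a3 in each library, high glucose (25 mM) left of low glucose (2.5 mM). Nr4a1 holds 76.5% and 92.1% at high glucose, against 32.9% and 44.6% at low glucose. There Nr4a2 holds the largest share, though in low-glucose replicate 2 its lead over Nr4a1 is within counting error and depends on the gene lengths used.

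Among the nuclear receptor genes tested, Nr4a1 stood in the lower part of the order of levels at low glucose and at the upper end at high glucose. Of all 49 such genes in the table, it ranked 1 by mean CPM per kb at high glucose and 27 at low glucose. The receptors that did not pass the low-count filter all ranked below Nr4a1 at low glucose. By library it ranked 3 and 1 at high glucose, against 28 and 27 at low glucose. In high-glucose replicate 1 it lay below Vdr, the vitamin D receptor (18.3 CPM per kb for Nr4a1, 43.7 for Vdr), so its first place in the mean rests on high-glucose replicate 2 (77.4 against 48.0 CPM per kb for Vdr). Nr4a2 ranked 18 by mean at high glucose and 26 at low glucose, and Nr4a3 ranked 30 at high glucose and 33 at low glucose. Among all genes tested, Nr4a1 stood at percentile 83.3 and 96.4 of per-kb level at high glucose, against 19.2 and 32.2 at low glucose. Nr4a2 stood at 54.5 and 60.1 at high glucose, against 28.6 and 34.3 at low glucose. Nr4a3 stayed in the lowest part of the order, at 6.30 and 11.8 at high glucose, against 1.19 and 5.18 at low glucose.

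**Figure D3:**
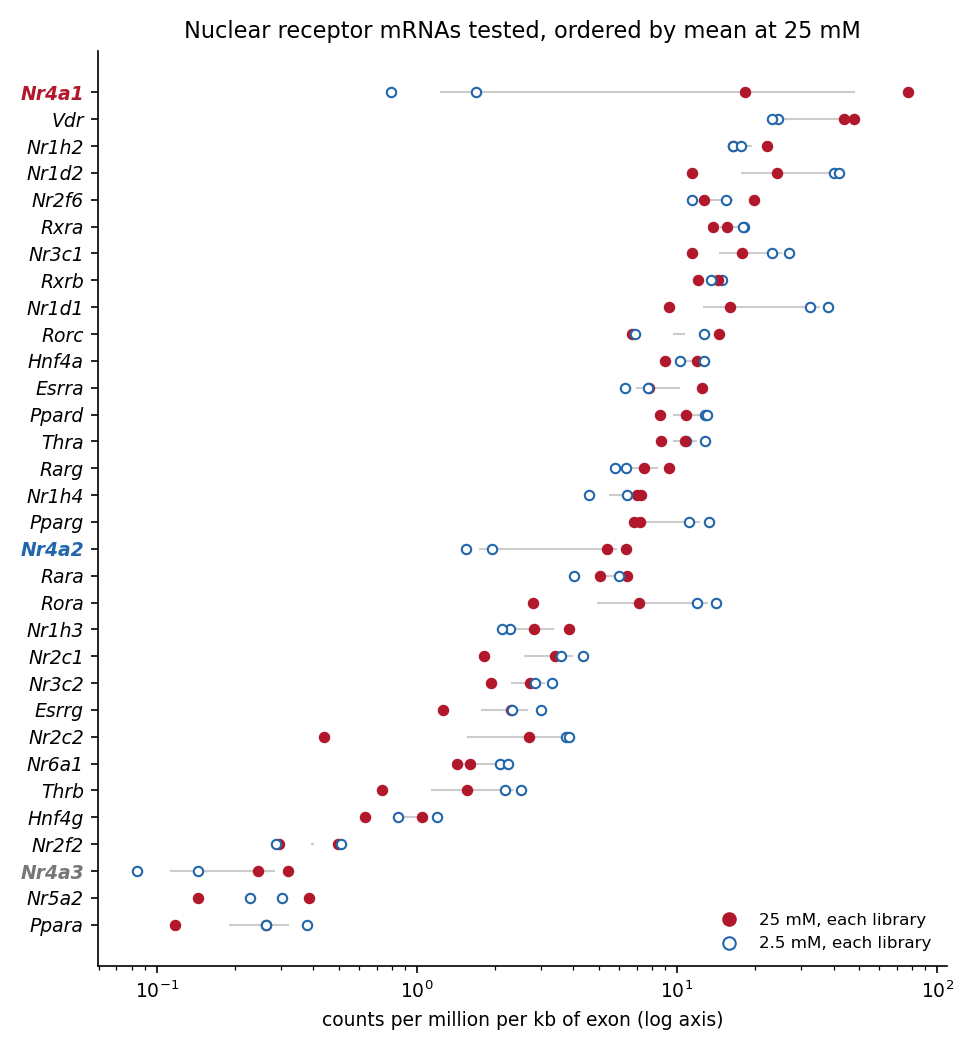
Levels of the 32 nuclear receptor mRNAs that passed the low-count filter (CPM per kb of exon, log axis), one row per gene, ordered by mean at high glucose; filled red points are high-glucose libraries (25 mM), open blue points low-glucose libraries (2.5 mM) and grey lines join the group means. Nr4a1 spans the widest range of levels between the groups, while most other receptors lie within a narrow range.

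Of the other 46 nuclear receptor genes, 29 were tested. With the replicate block edgeR called 1 of 29 higher and 5 lower, a lean toward lower calls that all genes tested also had (1.85% higher and 5.01% lower). DESeq2 called 1 higher and 3 lower, against 55 and 130 of 11434 genes. Without a block edgeR called 0. At an unadjusted p under 0.05 it had 1 higher and 6 lower, against 598 and 1045 of all 15665 genes tested. Vdr, named here after its values were seen because it alone was called higher, had 247 and 271 CPM at high glucose, against 138 and 131 CPM at low glucose (log2 fold change 0.94, adjusted p = 0.014 with the block, edgeR). The clock-linked repressors Nr1d1 and Nr1d2 and the receptor Rora, which competes with them for the same DNA elements, fell at high glucose. Nr1d1 had 49.3 and 28.7 CPM at high glucose, against 117 and 99.5 CPM at low glucose, with an adjusted p of 2.4e-05 in edgeR with the block. Rora had 93.1 and 36.6 CPM at high glucose, against 185 and 155 CPM at low glucose, with the same adjusted p. Thrb, a thyroid hormone receptor, and Nr2c2, an orphan receptor, were called lower by edgeR with the block but not by DESeq2, and Nr2c2 had 40.3 and 6.55 CPM at high glucose, against 56.1 and 57.2 CPM at low glucose. The median log2 difference over the 29 genes was -0.19 in pair 1 and -0.50 in pair 2, against -0.03 and 0.01 over all genes tested. With the length trend removed beside the block, edgeR also called Pparg lower (adjusted p = 0.0023), named after its values were seen.

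NR4A proteins act with partners, among them the retinoid X receptors, which pair with Nr4a1 and Nr4a2, and the coactivators that nuclear receptors recruit. The partners Rxra and Rxrb, named for that role, were not called by any of these fits. Rxra had 98.4 and 87.0 CPM at high glucose, against 114 and 113 CPM at low glucose. Rxrb had 47.7 and 57.3 CPM at high glucose, against 59.0 and 53.9 CPM at low glucose. Of 19 partner and coregulator genes tested, 0 were called higher and 5 lower with the block, against 1.85% and 5.01% of all genes tested. DESeq2 and edgeR without a block called 0 of the 19. At an unadjusted p under 0.05 edgeR without a block had 0 higher and 4 lower, against 598 and 1045 of all 15665 genes tested. The 5 called with the block were Ncoa1, Ncoa2 and Ncoa3, the p160 coactivators, and the acetyltransferases Ep300 and Crebbp. Their transcripts are long (7895 to 15642 bases), and in pair 2 the log2 difference over all genes fell by 0.29 for each doubling of exonic length, against 0.06 in pair 1. With that trend removed, 2 of the 5 were still called, Ncoa3 and Ep300. The median log2 difference over the 19 genes was -0.21 in pair 1 and -0.71 in pair 2.

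The inputs known to switch on NR4A genes, which run through calcium channels, calmodulin kinases, calcineurin, CREB and its coactivators, MEF2 and SRF, were followed through 54 tested genes. Of these, 2 were called higher and 6 lower with the block (against 1.85% and 5.01% of all genes tested). DESeq2 called 1 higher and 3 lower, against 55 and 130 of 11434 genes, and edgeR without a block called 0. At an unadjusted p under 0.05 the latter had 4 higher and 9 lower, against 598 and 1045 of all 15665 genes tested. Their median log2 difference was -0.01 in pair 1 and -0.25 in pair 2. Crem, a CREB relative whose short product represses cAMP-responsive genes, had 34.7 and 61.1 CPM at high glucose, against 18.9 and 16.4 CPM at low glucose (log2 fold change 1.39, adjusted p = 1.5e-04, edgeR with the block). Hdac5, a class IIa histone deacetylase that represses MEF2 targets and was named after its values were seen, was the other one called higher. Creb1 itself had 72.1 and 41.5 CPM at high glucose, against 113 and 128 CPM at low glucose (adjusted p = 0.0036, edgeR with the block). Rps6ka5 (Msk1), a kinase that phosphorylates CREB, had 6.11 and 3.44 CPM at high glucose, against 15.5 and 19.2 CPM at low glucose (log2 fold change -1.89, adjusted p = 6.8e-07, edgeR with the block). Sik2, a kinase that holds CREB coactivators in the cytoplasm, and Mrtfb, an SRF coactivator, were called lower by edgeR with the block but not by DESeq2. Srf and the CREB coactivator gene Crtc3, named after their values were seen, were also called lower by edgeR with the block. Srf had a log2 fold change of -0.97 (adjusted p = 0.016) and was called by DESeq2 too (adjusted p = 0.048). Crtc3 had -1.04 (adjusted p = 0.0083, edgeR with the block) and was not called by DESeq2. With the length trend removed as well, edgeR gained 2 calls in this list, both higher and named after their values were seen, Sik1 (adjusted p = 0.011) and Elk3 (adjusted p = 0.018).

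Other immediate early genes were then set beside the NR4A genes. Of the 7 AP-1 subunits tested, 3 were called higher with the block (Fos, Fosb and Fosl2), against 1.85% of all genes tested, and 0 lower, against 5.01%. DESeq2 called Fos and Fosl2 higher, against 55 of 11434 genes, and gave no adjusted p for Fosb, whose counts were low. Without a block edgeR called 0 (3 higher at an unadjusted p under 0.05, against 598 of all 15665 genes tested). The median log2 difference of the 7 was 0.52 in pair 1 and 1.06 in pair 2. Fos, the founding AP-1 partner, had 16.9 and 34.9 CPM at high glucose, against 3.80 and 2.90 CPM at low glucose (log2 fold change 2.86, adjusted p = 1.6e-15, edgeR with the block). Fosb had 1.11 and 6.43 CPM at high glucose, against 0.335 and 0.484 CPM at low glucose. Fosl2 had 90.5 and 67.4 CPM at high glucose, against 35.8 and 28.8 CPM at low glucose. The Jun proteins, with which these pair, were encoded by mRNAs that edgeR with the block and DESeq2 did not call. Jun had 86.9 and 49.6 CPM at high glucose, against 98.8 and 89.9 CPM at low glucose. Jund had 77.8 and 105 CPM at high glucose, against 123 and 133 CPM at low glucose, and the levels of Junb overlapped between the groups. With the length trend removed beside the block, Jund was called lower (adjusted p = 0.0057, edgeR).

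Of 5 genes tested in the list of Npas4, the EGR factors and Arc, Npas4 and Egr1 were called higher by the block fit and by DESeq2, and none was called lower (all genes tested: 1.85% higher and 5.01% lower with the block, 1.62% in DESeq2). Without a block edgeR called 0 (2 higher at an unadjusted p under 0.05, against 598 of all 15665 genes tested). Npas4, a calcium-dependent transcription factor of neurons and beta cells, had 2.98 and 16.3 CPM at high glucose, against 0.279 and 0.645 CPM at low glucose (log2 fold change 4.21, adjusted p = 1.7e-15, edgeR with the block). Egr1 had 23.5 and 33.6 CPM at high glucose, against 10.6 and 11.5 CPM at low glucose. Egr2, Egr3 and Arc were not called, and their log2 differences lay between -0.53 and 0.11 in the pairs. Read by pair, the log2 difference of Nr4a1 (4.47 and 5.50) was above that of Npas4 (3.0 and 4.44) and Fos (2.12 and 3.54), while Nr4a2 (1.78 and 1.69) was above Fosl2 (1.33 and 1.22) and Egr1 (1.15 and 1.54) in both pairs. Nr4a3 (1.37 and 1.07) was above both of these in pair 1 and below both in pair 2. With 9 to 34 reads of Nr4a3 a library, that order was within its counting error. Nr4a1, Npas4, Fos, Fosb and Egr1 were further apart in pair 2, whereas Nr4a2, Nr4a3 and Fosl2 were slightly less so.

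**Figure D4:**
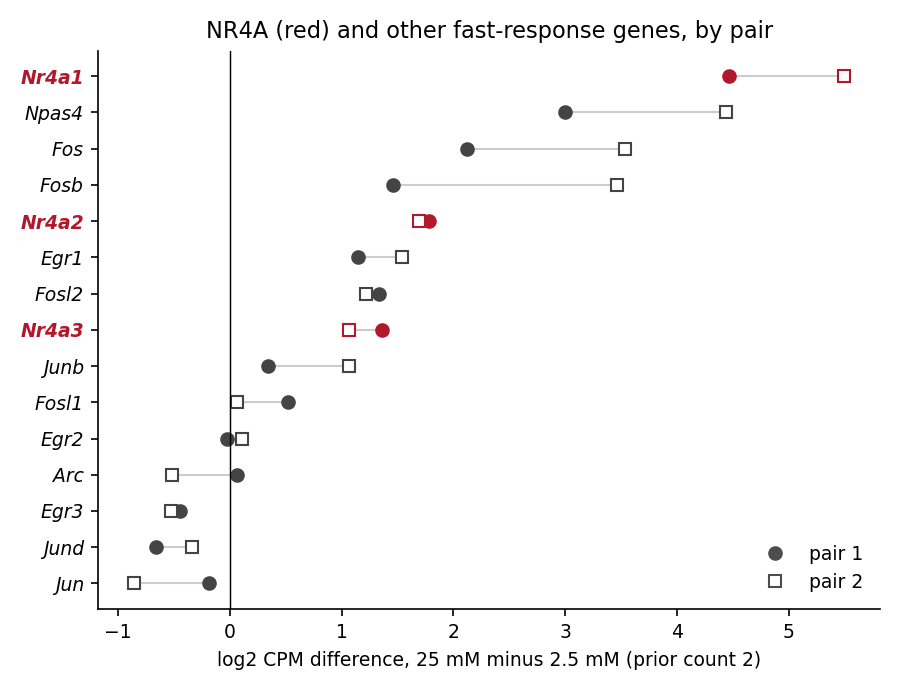
Difference in log2 CPM, high (25 mM) minus low glucose (2.5 mM), for the NR4A genes (red) and the tested AP-1, Npas4, EGR and Arc genes (grey), within pair 1 (filled circles) and pair 2 (open squares). Nr4a1 has the highest difference of the genes drawn in both pairs (4.47 and 5.50), and Nr4a2 lies above Egr1 and Fosl2 in both pairs. Nr4a3 lies above both in pair 1 and below both in pair 2, an order within its counting error.

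The genes whose pattern over the 4 libraries came closest to each member were found from the root-mean-square difference of centred log2 CPM. For Nr4a1 the closest was Npas4 (0.64), followed by 4931431B13Rik (0.70), 1700016P03Rik (0.71), Itgad (1.20) and Fos (1.24), so no gene followed it closely. For Nr4a2 the closest were Matk, a tyrosine kinase (0.10), and Galr2, a galanin receptor (0.10), then Rnf225, Ascl3 and Gm49395. For Nr4a3 they were Gm52964 (0.06), Gm49376, Sema6b, 4930597O21Rik and 4732416N19Rik. Within the family, Nr4a2 and Nr4a3 were closer to each other (0.29) than either was to Nr4a1 (1.77 for Nr4a2 and 1.98 for Nr4a3). With 4 libraries these distances describe the libraries and mainly follow the size of the glucose difference.

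Genes that neighbour the NR4A loci were not called as changed by edgeR with or without the block. A long noncoding RNA, ENSMUSG00000121015, overlaps Nr4a1 on the same strand and had 12 and 9 reads at high glucose, against 1 and 0 at low glucose. It was too low to be tested, and how reads in the overlap were assigned was not given in the sources used here, so reads of the 2 genes cannot be told apart there. Next to Nr4a1, Tamalin had 13.4 and 14.8 CPM at high glucose, against 9.38 and 14.8 CPM at low glucose. Atg101 had 18.7 and 26.5 CPM at high glucose, against 16.9 and 16.5 CPM at low glucose. The genes on either side of Nr4a2 (Kcnj3 and Gpd2) and of Nr4a3 (Sec61b and Stx17) had fitted log2 differences between -0.38 and 0.60. Neighbours were the nearest genes with at least 10 reads in each library, so nearer genes with fewer reads were passed over. Kcnj3 lay 1508685 bases from Nr4a2 and Sec61b 561911 bases from Nr4a3, against 113632 for Gpd2 and 38468 for Stx17.

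Genes given as NR4A targets in beta cells were also examined at 2 h. Of 14 tested, 2 were called higher with the block, Ins1 and Ins2 (against 1.85% of all genes tested). DESeq2 and edgeR without a block called 0. At an unadjusted p under 0.05 the latter also had 0, against 10.5% of all genes tested. Ins2 had 47832 and 121194 CPM at high glucose, against 46126 and 65926 CPM at low glucose, so that the groups overlapped and the difference lay in high-glucose replicate 2, the library with the highest insulin share. Both calls were lost once the length trend was removed with the block (adjusted p = 0.26 for Ins1 and 0.31 for Ins2, edgeR). In edgeR without a block and without high-glucose replicate 2, their log2 values changed sign, to -0.081 for Ins1 and -0.22 for Ins2. The fit with the trend removed gained 1 call in this list, the glucose transporter gene Slc2a2 (adjusted p = 0.041, edgeR), which is named after its values were seen and had 420 and 364 CPM at high glucose, against 239 and 363 CPM at low glucose. A further 28 targets tested came from other tissues, mainly glucose-handling genes of muscle and liver and genes of steroid-making and dopamine cells. Of these, 1 was called higher and 1 lower with the block, counts near the 1.85% and 5.01% of all genes tested. DESeq2 and edgeR without a block called 0. At an unadjusted p under 0.05 the latter had 2 higher and 2 lower, against 598 and 1045 of all 15665 genes tested. Pgam2, a muscle glycolytic enzyme for which DESeq2 gave no adjusted p, had 5.40 and 3.89 CPM at high glucose, against 0.838 and 0.967 CPM at low glucose (adjusted p = 5.2e-05, edgeR with the block). Lpin1, a phosphatidate phosphatase, had 35.6 and 25.7 CPM at high glucose, against 58.2 and 62.8 CPM at low glucose (adjusted p = 0.012, edgeR with the block). With the length trend removed as well, edgeR also called Ucp2 higher (adjusted p = 0.024), named after its values were seen.

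The 3′ untranslated regions of NR4A mRNAs differ in AU-rich pentamers (AUUUA, counted as ATTTA), which occur in many short-lived mRNAs. Nr4a1 held 3 in 543 bases, or 5.52 per kb, above 93.8% of 19086 protein-coding genes, but no copy of the longer heptamer TATTTAT. Nr4a2 held 3 in 1326 bases (2.26 per kb) and Nr4a3 5 in 3093 bases (1.62 per kb), against a median of 1.31 per kb. The heptamer occurred 1 time in Nr4a2 and 2 times in Nr4a3, and 27.4% of genes held at least 1 copy. The pentamer density of the AP-1, Npas4, EGR and Arc genes spread from 0 in Arc and Egr4 to 4.91 per kb in Fos, with Npas4 at 1.40 per kb. These counts come from the reference transcripts (GENCODE vM21) and describe sequence only.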

How the data were processed

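RNA-seq of 4 mouse islet libraries was analysed, 2 per glucose level. The deposited values are raw counts per gene, made by the authors with featureCounts after trimming in fastp and alignment in HISAT2 2.2.1. The submitters' notes name mm10, but the table's gene positions are of another build and none is printed; promoter coordinates are those of GRCm38.p6 in RefSeq. Strand setting and handling of shared reads are not given in the sources used here.

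Genes passing filterByExpr (minimum count 10) numbered 15665 of 56748. The main test was edgeR 4.0.16 quasi-likelihood with TMM scaling and Benjamini-Hochberg adjustment at 0.05. DESeq2 1.42.0 and limma 3.58.1 (voom), run in R 4.3.3, were alternatives, as were other scalings, no filter, a replicate block, removal of a length trend (loess span 0.5) and leaving out each library. Log2 pair differences used a prior count of 2. Deviations of same-numbered libraries from their group means correlated (r = 0.409); the methods divide each mouse's islets between glucose levels, and that the shared number marks this division is an inference. The fits were tested on simulated data that held no outlying library and no length trend, so nothing about either is read from that test.

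The members, gene lists, motifs and tests were chosen with earlier results of these data known. Genes named are the members, called genes of each list (the 5 with the largest change where more passed), and all tested AP-1, Npas4, EGR and Arc genes. Also named are the 5 nearest profiles per member, overlapping genes, the nearest gene on each side with at least 10 reads in each library, and marker lists.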

Additional observations from a re-analysis of the deposited data

How the results depend on the processing

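The direction of all 3 NR4A genes held under each of the 21 alternatives run. The genes were chosen on this contrast and their groups did not overlap, so it could hardly reverse, and nothing is read from that. For each gene, 20 of 21 alternatives moved the log2 value by less than its spread between replicates. Leaving out 1 library at a time gave log2 values of 3.88 to 5.98 for Nr4a1 (lowest without high-glucose replicate 2), 1.58 to 1.98 for Nr4a2 and 0.97 to 1.79 for Nr4a3 (both highest without low-glucose replicate 2). The count of genes past the adjusted threshold, 0 in edgeR without a pairing term, depended strongly on the fit. It was 1075 with the replicate block, 1364 with the replicate block and length trend removed, 12 with the length trend removed alone, 597 with no filter on low counts, 185 with DESeq2 and 256 with DESeq2 and the replicate block. In edgeR without a block, 1559 genes met the cut-offs used in the study, an unadjusted p below 0.05 with a log2 value beyond 0.58 either way. It was 0 with limma-voom, RLE factors and library size alone, and 5 to 3253 with 1 library left out (5 without high-glucose replicate 2, and 3253 when the first high-glucose library was dropped). Genes of the 7 lists past the threshold, 0 in the main test, numbered 28 with the replicate block, 29 with the replicate block and length trend removed, 2 with the length trend removed alone, 23 with no filter, 12 with DESeq2 and 12 with DESeq2 and the replicate block, and 0 to 58 with 1 library left out. The lists held 154 tested genes. With the replicate block, 28 of these 154 passed the threshold, against 1075 of all 15665 genes tested. The lists were chosen with earlier results of these data known, so nothing is read from that gap. Over 35 named list genes and 455 alternatives, 302 kept their direction and side of the threshold, 11 kept their direction where DESeq2 gave no adjusted p, 135 kept their direction and passed it, and 7 changed sign with neither value past it. Egr2 was at -0.00086 with the length trend removed and at -0.28 to 0.43 with 1 library left out, and on leaving out 1 library Fosl1 ranged over -0.29 to 1.14, Ins1 over -0.081 to 1.08 and Ins2 over -0.22 to 1.12. Nr4a3 had 9 to 34 reads a library, the fewest of the 3 genes.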
